A study of Mus musculus with 4 samples.

Results

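The mitochondrial carrier family, the SLC25 genes, was followed in whole liver of ethanol-fed mice with and without a binge of ethanol. Its members were the rows of the count table whose symbol is Slc25a followed by a number, without the aspartate-glutamate and oxoglutarate carriers of the NADH shuttles (Slc25a11, Slc25a12 and Slc25a13), the ornithine carrier Slc25a15 and the carnitine carrier Slc25a20. This gave 42 of the 47 Slc25a rows and of the 22155 rows in all. All mice were wild-type C57BL/6, aged 8 to 10 weeks, on a Lieber-DeCarli liquid diet with 5% ethanol for 10 days. The group called ethanol alone held 2 libraries. The gavage group, also of 2 libraries, was also given a single dose by stomach tube, 5 g ethanol for each kg of body weight, 9 h before the liver was taken. The comparison asks how the livers of ethanol-fed mice differ with the binge. Whether the group without a binge had a control gavage was not given in the sources used here. The labels do not say whether replicates were different mice. Every p-value therefore rests on the spread between these libraries, which may be technical.

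Carriers of this family are small proteins, most of which sit in the inner mitochondrial membrane and move metabolites, nucleotides, cofactors, amino acids, phosphate or iron between cytosol and matrix. In liver they feed respiration, the export of citrate for lipid synthesis, gluconeogenesis, the urea cycle and heme synthesis. Ethanol oxidation makes NADH in both compartments, so the traffic of reducing equivalents and adenine nucleotides across this membrane is part of how hepatocytes handle alcohol. Levels are in CPM, a gene's counts scaled to one common library total, with library sizes adjusted by TMM, a factor that corrects for library composition. A set of 4 values lists ethanol alone replicates 1 and 2 and then gavage replicates 1 and 2. Fold changes set gavage over ethanol alone and come from edgeR's quasi-likelihood fit. They carry an SE and a 95% interval derived from its F statistic. Library totals ran from 28791281 to 30347558 counts, and 3 counts correspond to between 0.0955 and 0.110 CPM.

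Hepatocyte genes fitted the tissue label, with albumin (Alb) between 83277 and 110898 CPM and none of 10 hepatocyte markers at 0 in any library. Of these 10 markers, 3 had fold changes above 0 and 7 below, and they summed to 165822, 141041, 127452 and 146833 CPM. In the quasi-likelihood test 1 was higher and 3 were lower at an unadjusted p under 0.05, beside 8.91% and 9.85% of all tested genes. DESeq2 called 5 of the 10 in either direction, beside 4.37% higher and 5.43% lower of the genes it adjusted. Both libraries numbered 1 stood apart. All 8 skeletal muscle markers were higher in both of them than in either library numbered 2, summing to 356, 10.3, 660 and 1.16 CPM. So were 7 of 8 adipocyte markers (summed 81.6, 14.2, 138 and 53.1 CPM) and 7 of 7 T and B cell markers (9.04, 3.24, 6.81 and 2.52 CPM). The remaining adipocyte marker, Cidec, stood at 3.66, 0.529, 15.7 and 33.9 CPM, and made up most of the adipocyte sum in replicate 2 of the gavage group. Between the groups, 10 of 10 Kupffer cell and macrophage markers had fold changes below 0 (summed 694, 675, 400 and 444 CPM), as had 6 of 6 tested erythroid markers (214, 147, 110 and 103 CPM). In the quasi-likelihood test 7 of these 10 and 1 of these 6 were lower at an unadjusted p under 0.05. Of all tested genes, 9.85% were. In whole tissue, fewer cells of a type and less RNA per cell cannot be told apart. Neutrophil markers were rare and had fold changes above 0 in 4 of 4 tested, with sums of 4.87, 4.49, 17.8 and 6.41 CPM. Of these 4, 2 were higher at an unadjusted p under 0.05, as were 8.91% of all tested genes. Endothelial, stellate and cholangiocyte markers summed to between 458 and 514, 573 and 632, and 57.6 and 81.0 CPM. The part of any of these cell types in the levels of the carriers was not tested.

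Most carriers differed little between the groups. Of the 42 genes, 36 passed the filter on low counts, and 29 of these 36 (80.6%) had an absolute log2 fold change of at most 0.5, against 65.9% of all tested genes. The median log2 fold change was -0.06 over the carriers and 0.02 over all 13309 tested genes, with 14 carriers above 0 and 22 below. With Benjamini-Hochberg adjustment over all genes the quasi-likelihood test called 0 carriers and 0% of all genes. At an unadjusted p under 0.05 it had 1 carrier higher (2.78%) and 4 lower (11.1%), beside 8.91% and 9.85% of all tested genes. DESeq2 called 0 carriers higher and 1 lower, Slc25a23, beside 4.37% and 5.43% of the genes it adjusted. The 2 groups of libraries did not overlap for 6 carriers that were higher after gavage (16.7%) and 8 that were lower (22.2%), where 27.5% and 27.2% of all tested genes did so. At an unadjusted p under 0.05 the share of lower carriers was close to its background and that of higher carriers below it, and both shares of carriers without overlap were below theirs.

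**Figure D1:**
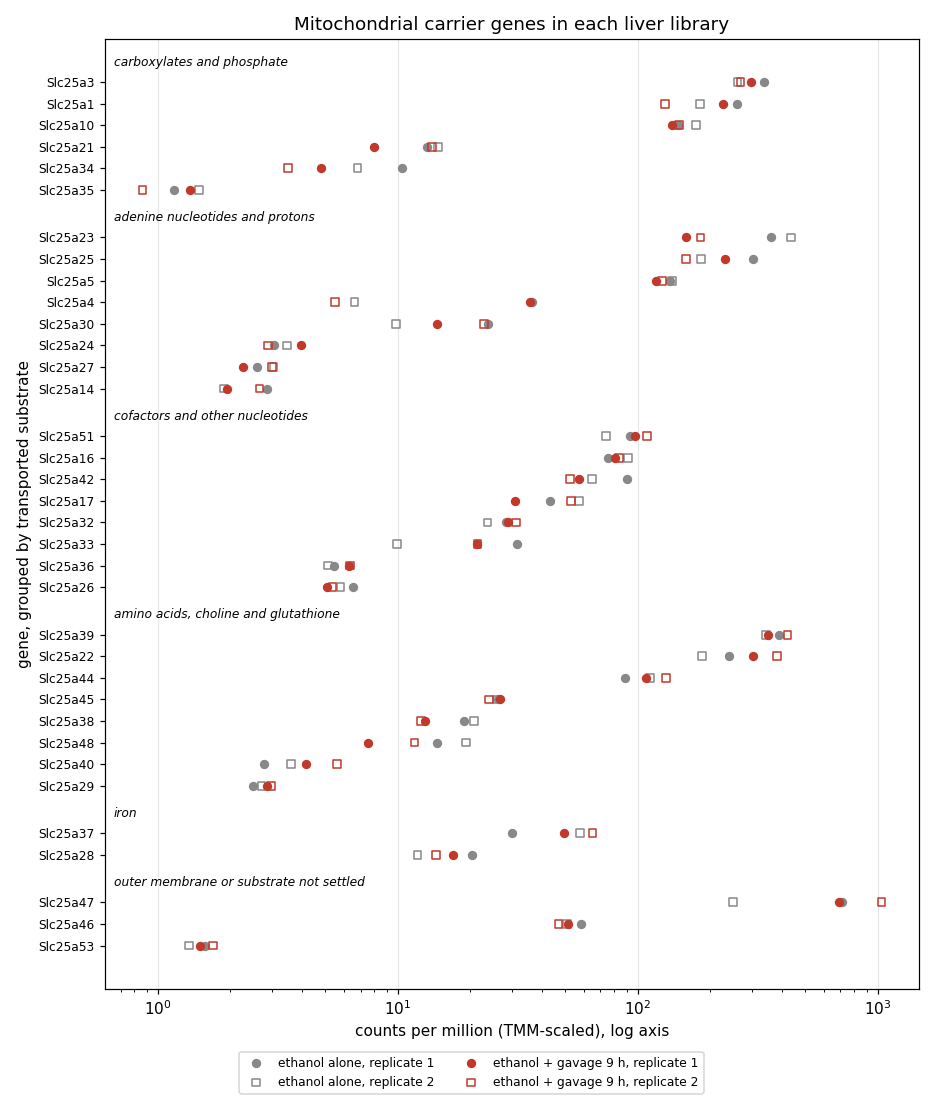
Level of 35 of the 36 tested carrier genes in each of the 4 libraries, in CPM on TMM-scaled library sizes on a log axis, grouped by substrate. Grey symbols are ethanol alone and red symbols the gavage group, with circles for replicate 1 and open squares for replicate 2. Slc25a47 reaches 1039 CPM, the grey and red symbols of Slc25a23 are apart, and the circles of Slc25a4 lie far to the right of its squares.

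Levels were compared between genes per kilobase of annotated exon, averaged over the 4 libraries. They spanned 1173-fold from Slc25a53 to Slc25a47. Slc25a47, a liver-enriched carrier whose substrate is not settled, came first at 225 CPM per kb, followed by the glutathione carrier Slc25a39 at 136, within the range of the Slc25a47 libraries, and the citrate carrier Slc25a1 at 92.0. The adenine nucleotide translocase Slc25a5, which exchanges matrix ATP for cytosolic ADP, stood at 79.3 CPM per kb, ahead of Slc25a23 at 53.7 and the phosphate carrier Slc25a3 at 52.3. Slc25a23 and Slc25a3 did not differ beyond the spread of their libraries, and in the gavage group their order was the reverse. At the other end, Slc25a35 stood at 0.333 and Slc25a53, an orphan member, at 0.192 CPM per kb.

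The 5′ regions of 3 genes are shown, Slc25a23 and Slc25a34 because they had the lowest fold changes of the family and Slc25a22 because it was the 1 carrier higher at an unadjusted p under 0.05. Each runs from 250 bases before to 50 bases after a RefSeq transcription start, 5′ to 3′ on the gene's strand, in GRCm38.p6. Slc25a23 lies at chr17:57059814-57060113, Slc25a34 at chr4:141623785-141624084 and Slc25a22 at chr7:141434545-141434844, all on the minus strand. RefSeq lists 2 starts for Slc25a23 and 3 for Slc25a22, and the one nearest to most protein-coding GENCODE starts was taken. Capitals mark matches on either strand to the CCAAT box (CCAAT), the GC box (GGGCGG) and a nuclear receptor element (AGGTCA).
Slc25a23: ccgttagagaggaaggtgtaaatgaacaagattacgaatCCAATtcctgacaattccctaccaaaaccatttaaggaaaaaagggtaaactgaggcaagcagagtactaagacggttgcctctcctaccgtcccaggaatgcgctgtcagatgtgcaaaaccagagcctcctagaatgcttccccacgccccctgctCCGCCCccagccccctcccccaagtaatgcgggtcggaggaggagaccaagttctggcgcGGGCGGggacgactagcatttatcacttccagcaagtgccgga
Slc25a34: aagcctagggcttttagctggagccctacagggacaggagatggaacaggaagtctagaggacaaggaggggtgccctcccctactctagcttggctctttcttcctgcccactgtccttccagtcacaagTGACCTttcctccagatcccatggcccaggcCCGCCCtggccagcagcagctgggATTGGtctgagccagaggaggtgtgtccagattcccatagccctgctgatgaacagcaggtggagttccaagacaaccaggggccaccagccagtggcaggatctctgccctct
Slc25a22: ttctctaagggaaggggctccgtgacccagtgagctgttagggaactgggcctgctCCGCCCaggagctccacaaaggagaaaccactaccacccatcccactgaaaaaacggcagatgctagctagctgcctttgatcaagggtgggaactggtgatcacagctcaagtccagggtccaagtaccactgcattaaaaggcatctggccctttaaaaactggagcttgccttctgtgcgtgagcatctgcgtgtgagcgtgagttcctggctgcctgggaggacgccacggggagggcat

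The Slc25a23 region holds 1 CCAAT match and 2 GC boxes, that of Slc25a34 1 of each of the 3 motifs, and that of Slc25a22 1 GC box. None of the marked matches overlap one another. Of all 32851 regions of this length in the table, 37.4% hold CCAAT, 35.7% GGGCGG and 16.3% AGGTCA. Among the 27 tested carriers with an entry, 1 region each, 16 hold CCAAT, 24 GGGCGG and 4 AGGTCA. The TATA box (TATAAA), in 13.6% of all regions and 0 of the 27, was also searched. So were the E-box (CACGTG), in 7.15% and 3 of the 27, and the cyclic AMP response element (TGACGTCA), in 1.79% and 1 of the 27. None of these other motifs stands in the regions shown. The table holds regions of non-coding genes and several starts per gene, so these shares are not like for like.

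Among the carriers of adenine nucleotides, Slc25a23 gave the smallest p of the family. It is a calcium-regulated carrier that exchanges ATP-Mg for phosphate and so sets the size of the matrix adenine nucleotide pool. Its gene lies on chromosome 17, 57043711 to 57059863 (GRCm38, whole gene). Its level was 361 and 435 CPM with ethanol alone and 159 and 183 CPM after gavage. Both gavage libraries lay below both others, with no overlap. The level was 2.33-fold lower after gavage, a log2 fold change of -1.22 (SE 0.23, interval -1.80 to -0.64). The adjusted p was 0.134 in the quasi-likelihood test, 2.43e-06 in DESeq2 and 0.00996 in edgeR's likelihood-ratio test. Slc25a23 was the only carrier with an unadjusted p under 0.05 in the main comparison and in all 13 alternative settings, where its log2 fold change ran from -1.37 to -1.12. Exons of Gm17168, an antisense gene without a row in the counts used here, overlap those of Slc25a23, and Crb3 overlaps the gene on the opposite strand without sharing exon bases. Reads of Slc25a23 and Gm17168 cannot be told apart where counting ignores strand, and the strand setting was not given in the sources used here.

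The other ATP-Mg carriers did not separate the groups. Slc25a25, the other ATP-Mg carrier found at a high level, stood at 304, 183, 232 and 159 CPM, so the groups overlapped (log2 fold change -0.32, SE 0.34, interval -1.19 to 0.55). Slc25a24 was near 3 CPM in every library, between 2.89 and 3.95. Slc25a41, also on chromosome 17, and Slc25a54 had no count in any library, which allows at most the level of 3 counts given above. Whether Slc25a23 and Slc25a25 differ in their response was not tested.

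Of the ADP/ATP translocases, Slc25a5 was steady at 137, 139, 120 and 127 CPM (log2 fold change -0.16, interval -0.64 to 0.32). Processed pseudogenes with near-identical sequence exist for it, such as Gm5560 at 98.3% identity over 887 bases, so its reads could have been lost or shared. Slc25a4, the isoform of heart and skeletal muscle, stood at 36.4, 6.61, 35.5 and 5.48 CPM. It was high in both libraries numbered 1 and low in both numbered 2, a 5.51-fold difference within ethanol alone and 6.47-fold within the gavage group. Its log2 fold change between the groups was -0.07 with an interval from -2.78 to 2.64. The skeletal muscle markers were also higher in both libraries numbered 1. Acta1, skeletal actin, stood at 110, 3.96, 294 and 0.199 CPM and Ckm, muscle creatine kinase, at 54.1, 1.35, 98.5 and 0.0664 CPM. Between the libraries numbered 1, Slc25a4 was nearly level, while these markers summed to 356 CPM with ethanol alone and 660 CPM after gavage. The part of muscle in the level of Slc25a4 was not tested. The testis isoform Slc25a31 had at most 7 counts in a library.

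The remaining members of this group are relatives of the uncoupling proteins. Slc25a30, first described in kidney, stood at 23.9, 9.81, 14.6 and 22.9 CPM. Its libraries of ethanol alone differed 2.43-fold and bracketed those of the gavage group. Slc25a14 and Slc25a27 had mean levels of 2.33 and 2.72 CPM and log2 fold changes of -0.04 and -0.10. In this group of 8 tested genes 2 had fold changes above 0 and 6 below, and Slc25a23 alone had an unadjusted p under 0.05. The summed level of the group was 870, 782, 569 and 505 CPM, with both gavage libraries lower. Without Slc25a23 the other 7 summed to 509, 347, 410 and 323 CPM, and the groups overlapped.

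**Figure D2:**
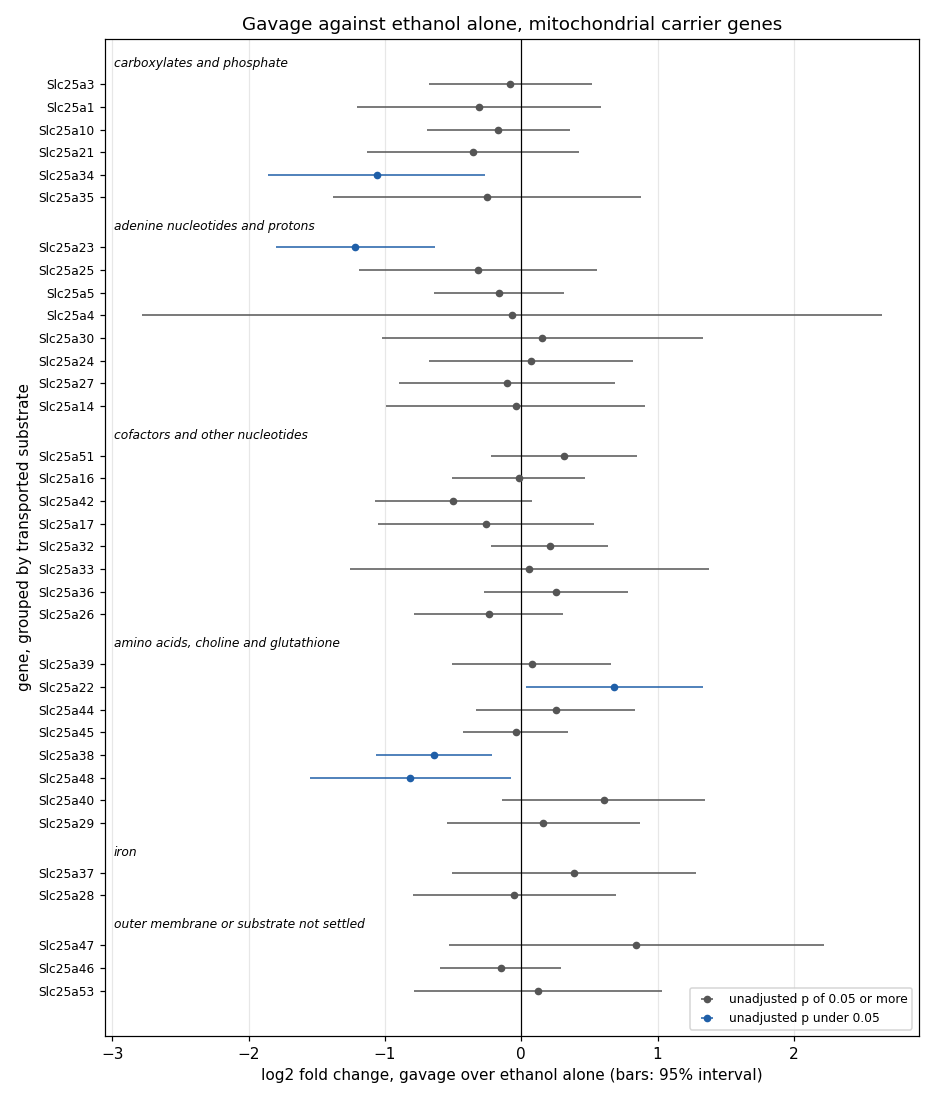
Log2 fold change of 35 of the 36 tested carrier genes, gavage over ethanol alone, as points with 95% intervals derived from the quasi-likelihood F statistic. Blue marks the 5 genes with an unadjusted p under 0.05, 4 to the left of 0 and 1 to the right. The interval of Slc25a4 is the widest, from -2.78 to 2.64.

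Carriers of carboxylates and phosphate had fold changes below 0 in 6 of 6 tested members, with a median log2 fold change of -0.28. Their summed level was 766, 641, 675 and 565 CPM, and the groups overlapped. The groups also overlapped for every member but 1, the only one with an unadjusted p under 0.05. That member was Slc25a34, an orphan carrier placed near the oxaloacetate carriers of yeast by its sequence (chromosome 4, 141618824 to 141623821). It stood at 10.5, 6.81, 4.78 and 3.49 CPM. Both gavage libraries were below both of ethanol alone, with a log2 fold change of -1.06 (SE 0.31, interval -1.86 to -0.26) and an adjusted p of 0.202. With DESeq2 the adjusted p was 0.0761. Left out in turn, replicate 1 of ethanol alone and replicate 2 of the gavage group took its unadjusted p in edgeR's quasi-likelihood test to 0.0887 and 0.0858.

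Slc25a3, which imports the phosphate used for ATP synthesis, was at 335, 261, 296 and 268 CPM, and the groups overlapped. Slc25a1, which exports citrate for fatty acid and sterol synthesis, was at 259, 181, 226 and 130 CPM. In both groups replicate 1 was higher than replicate 2, by 1.43-fold and 1.74-fold, and the interval of its log2 fold change ran from -1.20 to 0.59. Slc25a10, the dicarboxylate carrier that exchanges malate or succinate for phosphate, was at 147, 175, 139 and 148 CPM (log2 fold change -0.17, interval -0.69 to 0.36). The oxodicarboxylate carrier Slc25a21 was at 13.3, 14.7, 7.96 and 14.0 CPM, low in replicate 1 of the gavage group alone. Slc25a35 stayed between 0.864 and 1.49 CPM, and its exons overlap those of Rangrf on the opposite strand.

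Carriers of amino acids, choline and glutathione held the 1 gene on the higher side. Slc25a22, which imports glutamate with a proton (chromosome 7, 141429744 to 141437892), stood at 241 and 185 CPM with ethanol alone and at 304 and 381 CPM after gavage. Both gavage libraries were higher, a 1.61-fold difference with a log2 fold change of 0.68 (SE 0.25, interval 0.04 to 1.33). The adjusted p was 0.252, and 0.0682 in DESeq2. Its paralogue Slc25a18, which carries the same substrate, had at most 1 count in a library, so nearly all counted reads of this type came from Slc25a22. Exons of Slc25a18 overlap those of Atp6v1e1 on the opposite strand, and reads there could have been lost where counting ignores strand.

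Slc25a38, a glycine carrier needed for heme synthesis in erythroid cells (chromosome 9, 120110374 to 120124504), lay lower after gavage. It stood at 18.9 and 20.8 CPM against 13.0 and 12.5 CPM, with groups that did not overlap and little spread within them. Its log2 fold change was -0.64 (SE 0.17, interval -1.07 to -0.21, adjusted p = 0.183). The tested erythroid markers had fold changes below 0 too. Among them, the beta-globin gene Hbb-bs stood at 92.3, 55.2, 56.8 and 42.5 CPM, and its groups overlapped. Alas2, the erythroid enzyme that uses glycine, stood at 57.9, 12.5, 9.55 and 9.87 CPM, by far highest in replicate 1 of ethanol alone. Slc25a38 was not highest in that library. The part of blood cells in the level of Slc25a38 was not tested. Slc25a48, described as a mitochondrial choline carrier (chromosome 13, 56438355 to 56474239), stood at 14.6 and 19.3 against 7.55 and 11.8 CPM. The gavage libraries were again the lower pair (log2 fold change -0.81, SE 0.29, interval -1.55 to -0.08, adjusted p = 0.242).

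The abundant Slc25a39, which brings glutathione into the matrix, did not separate the groups, at 388, 342, 349 and 421 CPM (log2 fold change 0.08, interval -0.51 to 0.66). Its paralogue Slc25a40 was rarer, at 2.78, 3.60, 4.14 and 5.58 CPM. The gavage libraries were higher there, with a log2 fold change of 0.61 and an interval that reached below 0, from -0.14 to 1.35. The processed pseudogene Gm5066 matches Slc25a40 at 96.3% identity over 724 bases, so reads of Slc25a40 could have been lost or shared. Slc25a44, a carrier of branched-chain amino acids, stood at 88.2, 113, 109 and 131 CPM. Slc25a45 had the shortest interval of the family, -0.42 to 0.35, at levels between 24.1 and 26.6 CPM. Slc25a29, a carrier of basic amino acids, ran from 2.49 to 2.96 CPM. Together 5 of the 8 tested genes of the group had fold changes above 0 and 3 below.

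Carriers of cofactors and other nucleotides had 4 of 9 fold changes above 0 and 5 below, and 0 of them had an unadjusted p under 0.05 in either direction. Slc25a51, the carrier that brings NAD into the matrix, stood at 92.8, 73.9, 97.9 and 110 CPM. The gavage pair was higher by a narrow margin, with a log2 fold change of 0.32 (interval -0.22 to 0.85, adjusted p = 0.457). Slc25a42, which brings coenzyme A into the matrix, stood at 90.0, 64.4, 56.9 and 52.3 CPM, with the gavage pair lower (log2 fold change -0.50, interval -1.07 to 0.08, adjusted p = 0.308). Slc25a16, also linked to coenzyme A, had the fold change closest to 0, -0.02 on the log2 scale (interval -0.51 to 0.47), at 75.6, 90.9, 80.8 and 83.4 CPM.

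Slc25a33, which carries pyrimidine nucleotides, varied within ethanol alone. It stood at 31.3 and 9.94 CPM there and at 21.5 CPM in both gavage libraries, which lay between those values. Its log2 fold change was 0.06, but it was 1.09 when replicate 1 of ethanol alone was left out and -0.60 when replicate 2 was. The other pyrimidine carrier, Slc25a36, ran from 5.12 to 6.31 CPM. The pseudogene Gm13217 matches it at 99.6% identity over 544 bases, and reads there could have been lost or shared. Slc25a17, a carrier of the peroxisomal membrane, was at 43.1, 56.8, 30.7 and 52.8 CPM. Slc25a26, for S-adenosylmethionine, and Slc25a32, linked to folate and FAD, had log2 fold changes of -0.24 and 0.21.

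The mitoferrins import iron for heme and iron-sulfur clusters. Slc25a37, mitoferrin 1, stood at 29.8, 57.4, 49.4 and 64.8 CPM. It was low in replicate 1 of ethanol alone, the library in which Alas2 was highest, and its groups overlapped (log2 fold change 0.39, interval -0.50 to 1.28). Part of its transcript is identical to one of Gm16867 over 382 bases, and reads there could have been lost or shared. Slc25a28, mitoferrin 2, stood at 20.4, 12.1, 16.9 and 14.4 CPM.

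Slc25a47 was the most abundant carrier and one of the least even. It stood at 713 and 250 CPM with ethanol alone and at 690 and 1039 CPM after gavage. Replicate 2 of ethanol alone was low, 2.85-fold under replicate 1, and replicate 2 of the gavage group was high, so the groups overlapped. The log2 fold change was 0.84 (SE 0.54, interval -0.53 to 2.22, adjusted p = 0.437). It was 1.76 when replicate 1 of ethanol alone was left out and 0.22 when replicate 2 was. Its gene lies on chromosome 12, 108836046 to 108856815. Slc25a46, which sits in the outer membrane and takes part in mitochondrial fission, was even, at 58.1, 50.7, 51.2 and 46.8 CPM, and part of its transcript is shared with B930094E09Rik.

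**Figure D3:**
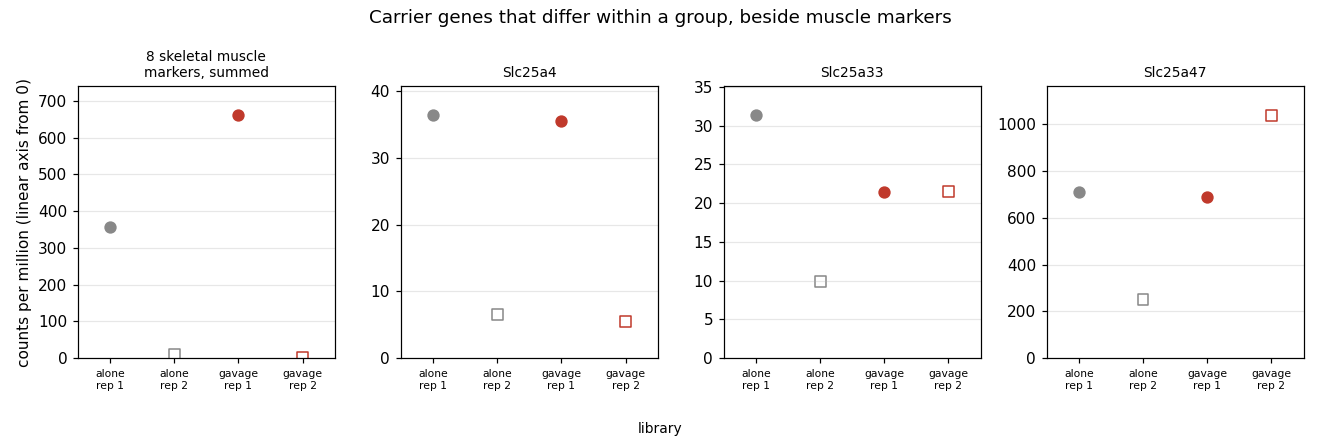
CPM in each library, on linear axes that start at 0, for 8 skeletal muscle markers summed and for Slc25a4, Slc25a33 and Slc25a47. Grey symbols are ethanol alone and red symbols the gavage group, with circles for replicate 1 and open squares for replicate 2. The muscle markers and Slc25a4 are high in both libraries numbered 1, while Slc25a33 and Slc25a47 are lowest in replicate 2 of ethanol alone.

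Differences of more than 2-fold within a group were about as common as over all genes with ethanol alone, and less common in the gavage group. Libraries of ethanol alone differed by more than 2-fold for 4 of 36 carriers (Slc25a4, Slc25a30, Slc25a33 and Slc25a47), 11.1% against 10.1% of all tested genes. Those of the gavage group did so for 1, Slc25a4, 2.78% against 8.63%. Slc25a30, Slc25a33 and Slc25a47 were all higher in replicate 1 of ethanol alone than in replicate 2. In the gavage group Slc25a30 and Slc25a47 were lower in replicate 1 than in replicate 2, and Slc25a33 was level. The 6 carriers under the filter were Slc25a2, with at most 11 counts, Slc25a31, Slc25a43, with at most 3, Slc25a18, Slc25a41 and Slc25a54.

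Leaving out a library changed which carriers had an unadjusted p under 0.05, and also the share of all tested genes that did, which was 18.8% with all 4 libraries. Without replicate 1 of ethanol alone there were 3 higher, Slc25a22, Slc25a33 and Slc25a47, and 3 lower, Slc25a23, Slc25a38 and Slc25a48, beside 12.9% of all genes. Without replicate 2 of ethanol alone there was 1 higher, Slc25a37, and 5 lower, which took in Slc25a33 and Slc25a42 beside Slc25a23, Slc25a34 and Slc25a38. The share of all genes was then 25.7%. Without replicate 1 of the gavage group there were 2 lower, Slc25a23 and Slc25a34, beside 8.55% of all genes. Without its replicate 2 there were 3 lower, Slc25a21, Slc25a23 and Slc25a48, beside 11.0% of all genes.

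Genes that work beside the carriers were taken from 3 short lists, whose counts at an unadjusted p under 0.05 stand beside the 8.91% of all tested genes higher and 9.85% lower. Of 5 proteins with the carrier fold under other symbols, 4 were tested, and 2 had an unadjusted p under 0.05, both lower. Mtch1, a carrier homologue of the outer membrane, stood at 88.7, 70.1, 47.5 and 49.4 CPM (log2 fold change -0.71, adjusted p = 0.192), and Mtch2, an insertase of that membrane, at 169, 146, 98.3 and 113 CPM (log2 fold change -0.57, adjusted p = 0.244). DESeq2 called Mtch1 (adjusted p = 0.028) and not Mtch2 (adjusted p = 0.0668). The uncoupling protein Ucp2 was even, between 36.8 and 41.3 CPM. Ucp3, known from muscle, had 28, 1, 87 and 0 counts and Ucp1, known from brown fat, 1, 0, 50 and 0, so both were highest in replicate 1 of the gavage group, where muscle and adipocyte markers were highest too.

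The list of the import machinery, which brings proteins through the outer membrane and into or across the inner one and here holds genes of the presequence translocase beside those of the carrier route, had 15 of 15 genes tested, 8 with fold changes above 0 and 7 below. Its median log2 fold change was 0.08, and 0 higher and 1 lower had an unadjusted p under 0.05. Tomm70a, the outer-membrane receptor for carrier precursors and the gene of the list with the highest CPM, not corrected for length, stood at 142, 144, 154 and 157 CPM (log2 fold change 0.12, SE 0.19). The 1 gene lower was Timm50, a receptor of the presequence translocase, at 33.3, 24.8, 20.9 and 19.6 CPM (adjusted p = 0.255). Timm22, the channel of the carrier insertase, stood at 10.7, 10.3, 8.02 and 8.00 CPM (adjusted p = 0.316).

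Of 18 mitochondrial transporters of other families, 4 had fold changes above 0 and 14 below (median log2 fold change -0.14). At an unadjusted p under 0.05, 3 (16.7%) were lower and 0 higher. Abcb10, an inner-membrane ABC transporter needed for heme synthesis, stood at 33.0, 34.9, 15.9 and 19.5 CPM. The gavage libraries were lower without overlap (log2 fold change -0.94, SE 0.17, adjusted p = 0.134, and 0.00319 in DESeq2). Sfxn5, a sideroflexin, stood at 25.3, 37.9, 16.3 and 18.9 CPM, and Tspo, of the outer membrane, had means of 43.5 CPM with ethanol alone and 30.4 CPM after gavage. Both were lower in the gavage pair, with adjusted p-values of 0.198 and 0.229 in the quasi-likelihood test. Highest per kilobase, and narrowly in mean CPM over the 4 libraries, was the outer-membrane channel Vdac1, at 209, 220, 212 and 202 CPM (log2 fold change -0.05). Mpc2, a subunit of the mitochondrial pyruvate carrier, stood at 297, 203, 177 and 151 CPM (adjusted p = 0.299). Its mean was 207 CPM against 211 CPM for Vdac1, and with ethanol alone it was the higher, at 250 against 215 CPM.

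**Figure D4:**
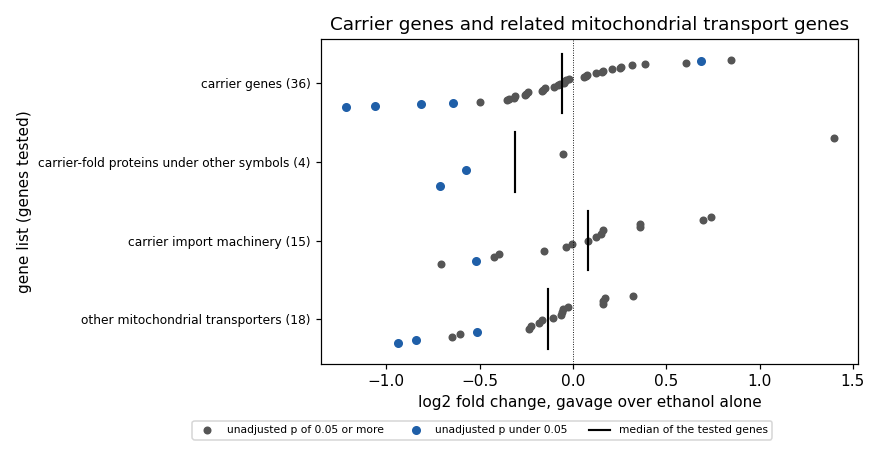
Log2 fold change, gavage over ethanol alone, of each tested gene in 4 lists: carrier genes, carrier-fold proteins under other symbols, the import machinery and other mitochondrial transporters. Points are genes, blue where the unadjusted p is under 0.05, and black bars are the medians (-0.06, -0.31, 0.08 and -0.14).

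The carriers left out of the family here had 1 fold change above 0 and 4 below. Slc25a12, a calcium-regulated aspartate-glutamate carrier, was higher in both gavage libraries, at 16.6, 19.2, 33.7 and 33.2 CPM, while its paralogue Slc25a13 was lower in both, at 289, 305, 139 and 192 CPM. Their log2 fold changes were 0.90 and -0.84, with adjusted p-values of 0.133 and 0.202 in edgeR's quasi-likelihood test and 0.00282 and 0.0119 in DESeq2.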

How the data were processed

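Whole-liver messenger RNA of 4 mouse libraries was sequenced, and each library was grouped by its title. The authors deposited whole-number read counts per gene symbol, not normalised. The submitters' processing notes list GRCm38, edgeR, HTSeq, STAR 2.6.0a and bcl2fastq 2.20.0.422, without roles. The annotation, the strand setting and how reads with several matches were handled were not given in the sources used here.

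The fits used edgeR 4.0.16 under R 4.3.3. filterByExpr by group (minimum count 10, minimum total 15) kept 13309 of 22155 genes, and TMM factors ran from 0.951 to 1.05. The test was the 2-sided quasi-likelihood F-test without covariates, fitted on all genes, with Benjamini-Hochberg adjustment and a threshold of 0.05. The SE is the absolute log2 fold change over the square root of F, and the 95% interval uses the fit's total degrees of freedom. DESeq2 1.42.0, limma-voom (limma 3.58.1) and edgeR's likelihood-ratio test were alternatives, with other scalings and filters, a replicate block and each library left out. The fits were also run on simulated counts, with independent libraries and the same dispersion, a measure of spread between libraries, for every gene. Same-numbered libraries here deviated together, so that run does not give the error rates of these results. Replicates differed by more than sampling noise (chi-square per degree of freedom 150 and 165).

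The members, roles and lists were chosen with earlier results of these data known. Named with all 4 values were tested members with an unadjusted p under 0.05, with a mean of at least 50 CPM, or with libraries of a group more than 2-fold apart. Others were added after their values were seen. For 1 tested member, which stays in the counts and medians, no values are reported here. Positions, exon lengths and overlaps came from GENCODE M21 (GRCm38), matched by symbol for 42 of 42 members, and 5′ regions from RefSeq (GRCm38.p6), for 31 of 42. Floors of 3 counts cover counting error only.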

Additional observations from a re-analysis of the deposited data

How the results depend on the processing

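Of 273 log2 fold changes recomputed for the named carriers under 13 alternatives, 255 kept their direction and side of the threshold, 16 changed sign and 2 passed the threshold, those of Slc25a23 with DESeq2 (-1.22) and the likelihood-ratio test (-1.22). The count of carriers called over all genes was thus 1 with each of these tools, against 0. Of all genes, DESeq2 called 1177 of the 12018 it adjusted and the likelihood-ratio test 549 of 13309. The count of carriers stayed 0 in every setting that left out a library. With library totals in place of TMM the median log2 fold change of the carriers was 0.036 (all genes 0.097), and Slc25a16 (0.053), Slc25a3 (0.0032) and Slc25a4 (0.056) changed sign. With 1 library left out, where the lone library of a group is assumed to vary like the others, carriers at an unadjusted p under 0.05 numbered from 2 to 6, with 0 to 3 higher and 2 to 5 lower, beside 8.55% to 25.7% of all tested genes (18.8% with all libraries), and the median ran from -0.21 to -0.039. Calls over all genes were then 31 with replicate 2 of the gavage group left out and 12 with replicate 2 of ethanol alone left out. Signs changed within these ranges for Slc25a1 (-0.76 to 0.031), Slc25a3 (-0.30 to 0.088), Slc25a4 (-1.97 to 1.62), Slc25a16 (-0.17 to 0.065), Slc25a25 (-0.69 to 0.070), Slc25a30 (-0.41 to 0.91), Slc25a33 (-0.60 to 1.09), Slc25a37 (-0.034 to 0.88) and Slc25a39 (-0.072 to 0.21). The cause was not tested. With the replicate block 0 carriers were called, while 410 of all genes were called against 0. The same 5 carriers as without it had an unadjusted p under 0.05, beside 24.9% of all tested genes. These were Slc25a22, Slc25a23, Slc25a34, Slc25a38 and Slc25a48. In this quasi-likelihood fit the adjusted p of Slc25a23 was 0.0531, and the median log2 fold change of the carriers was -0.055. Same-numbered libraries deviated together (r = 0.587 over genes, which are not independent replicates). With 2 pairs and no label that ties them, whether the number marks a pairing cannot be told. With 2 libraries per group, the interval of an abundant carrier such as Slc25a3 ran from -0.67 to 0.52 and that of Slc25a45, the shortest, from -0.42 to 0.35.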
